A study of Rattus norvegicus with 6 samples.

Results

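Solute carriers are membrane proteins that move small molecules across a cell's surface or across the membranes of its organelles. They were measured here in brain capillaries of SHRSP, the stroke-prone spontaneously hypertensive rat, as all genes whose symbol starts with Slc and a digit. The glucose, lactate, large neutral amino acid, glial glutamate and red cell anion carriers Slc2a1, Slc16a1, Slc7a5, Slc3a2, Slc1a2, Slc1a3 and Slc4a1 were set aside. A probe set, the group of oligonucleotides that reports a transcript, counted as a member where the array's annotation gave it a single such symbol. This rule took 163 of 8799 probe sets, for 113 of the 4737 genes named on the array. Of these, 104 probe sets of 81 genes passed the filter on dim signals and were tested, and 59 lay below it. By substrate, the tested members were 7 probe sets for amino acids, 15 for transmitters and their relatives, 25 for inorganic ions, 16 for sugars and related solutes, 14 for organic ions and 27 for other substrates. Classes were taken from the gene family, so the vitamin carrier Slc5a6 counted with the sugars.

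Rats of 6 weeks fell into 3 groups of 2 arrays each. The control group is labelled as such with no drug named for it, the ACEI group received lisinopril at 6 mg/kg per day, which blocks the enzyme that makes angiotensin II, and the ARB group received olmesartan by mouth at 4 mg/kg per day, which blocks the angiotensin type 1 receptor. The labels name 1% NaCl as well, but the sources used here do not say whether all groups or controls alone received it. Nothing says that the arrays of a group came from separate animals or pools, so p-values measure the spread between these samples, which may be technical. The question was which transcripts of cerebral capillaries depend on angiotensin II.

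Carriers work as uniporters, which follow the gradient of their substrate, or as cotransporters and exchangers. Many cotransporters and exchangers draw on the sodium or proton gradient that ion pumps maintain. In the brain, capillary endothelial cells joined by tight junctions use carriers to feed sugars, amino acids, vitamins and nucleosides into the tissue. Neurons and glia use other members to clear transmitters from synapses, the choroid plexus uses ion carriers to secrete cerebrospinal fluid, and mitochondria use a family of their own. A preparation of capillaries can therefore hold carrier transcripts of several cell types, and in such bulk RNA fewer cells of a type and less RNA per cell cannot be told apart.

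Values are deposited intensities on a linear scale, and differences are on the scale of log2(intensity + 90) with the standard error of a limma model. The arrays differed in ways that touch the results. The 15 probe sets for bacterial transcripts (Dap, Lys, Phe, Thr and Trpn) had medians of 18.4 to 28.8 in controls and ACEI and of 91.4 and 80.9 in ARB, and the sources used here do not say whether such transcripts had been added to the samples. Gapdh, whose 3' and 5' ends have a probe set each, had a 3'/5' ratio of 7.31 on control 2 and of 0.93 to 1.59 elsewhere. Differences above 2-fold between the arrays of a pair were found for 36.5% of tested members in controls, 21.2% in ACEI and 17.3% in ARB. Of the 104 tested members, 15 were more than 4-fold lower on control 2 than on control 1 and 3 more than 4-fold higher. Control 1 and ACEI 1 were run on an earlier day and from another chip lot than the remaining 4 arrays.

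The capillary label was checked against cell type markers. Of 16 endothelial genes, 13 had a named probe set, and their summed intensity was 75841 and 151298 in controls, 79316 and 83340 in ACEI, and 67139.5 and 77576 in ARB (Tek, Cdh5 and Cldn5 were not analysed here). Most of this sum came from Slc2a1 and Slco1a4, at 66763 and 79016 on control 2 alone, and it did not follow the count of genes: 10 of the 13 were lower on control 2 than on control 1, and 11 of the 13 lower in ARB than in ACEI. The 18 of 21 neuronal markers with a probe set summed to 5028 and 8428 in controls, 10654 and 8970 in ACEI, and 12491 and 16578 in ARB. The 9 of 10 markers of choroid plexus and ependyma summed to between 76210.2 and 166700 on the control and ACEI arrays and to 293330 and 290625 on the ARB arrays, most of which in ARB was transthyretin (Ttr). No gene of these lists was at 0 on any array.

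**Figure D1:**
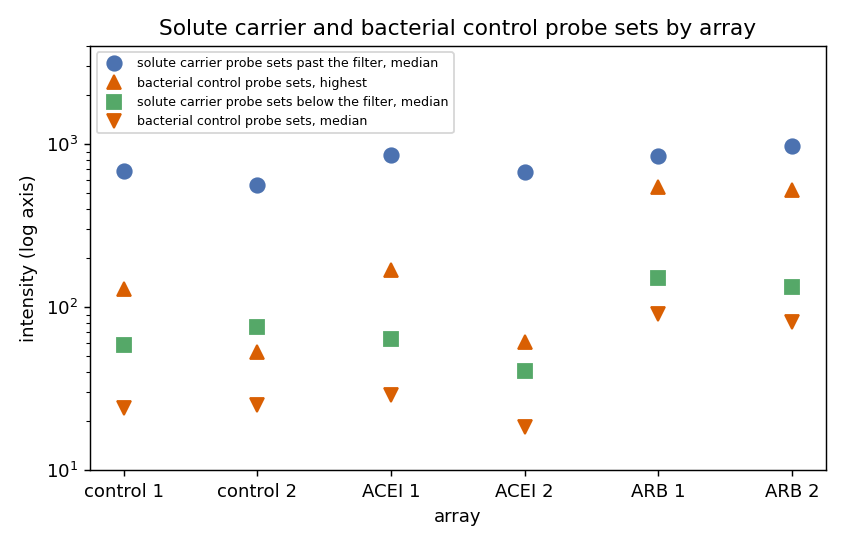
Median intensity (log axis) on each array of the solute carrier probe sets past the filter (circles) and below it (squares), with the median and the highest of the bacterial control probe sets (triangles). The dim carriers and the bacterial controls both lay higher on the ARB arrays, while the median of the carriers past the filter ranged from 565 to 970 over the 6 arrays.

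In no comparison did a solute carrier pass an adjusted p of 0.05 when all 6 arrays were fitted together. For renin-angiotensin blockade by either drug (the mean of ACEI and ARB) against control, 0% of all 5244 tested probe sets passed, and the lowest adjusted p of a member was 0.863 by limma. At an unadjusted p under 0.05, 2 members were higher (background 3.05%) and 2 lower (2.02%). Treated and control arrays did not overlap for 6 members that were higher (background 4.63%) and 3 that were lower (3.72%). For ACEI against control, 0 members were higher (background 1.2%) and 1 lower (1.39%), and the groups did not overlap for 15 higher (11.6%) and 12 lower (11.9%). For ARB against control, 13 were higher (12.6%) and 4 lower (4.69%), with no overlap for 37 (33.4%) and 11 (16.8%). For ARB against ACEI, 18 were higher (15.6%) and 9 lower (6.71%), with no overlap for 43 (37.1%) and 27 (25.3%). The shares of members past the unadjusted p, from 0% to 17.3%, lay near those of all probe sets.

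The number of members past the unadjusted threshold moved with the array left out, and so did the share of all probe sets. The 4 members of the comparison of both drugs with control became 18 without control 1 (2 of the 4 among them), where 21.2% of all probe sets passed. They became 11 without control 2 (9.31% of all), 1 without ACEI 2 (5.45%) and 2 without ARB 2 (2.96%). The single member for ACEI became 22 without control 1 (20.4% of all), 3 without control 2 or ACEI 1 (2.77% each), and 0 without either ARB array (1.93%). The 17 members for ARB against control became 5 without ARB 2 (7.17%). The 27 members for ARB against ACEI became 7 without ACEI 2 (6.56%), 15 without ARB 1 (12.7%) and 14 without ARB 2 (10.9%). Where a group kept a lone array, that array was assumed to vary like the other groups.

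Members did pass the adjusted test when the widely spaced control pair was left out and the 4 ARB and ACEI arrays were fitted alone. This fit called 305 of 5244 probe sets at an adjusted p under 0.05, or 5.82%, and 8 of the 104 carrier probe sets, or 7.69%. Higher in ARB were the serotonin transporter Slc6a4, the sodium-glucose cotransporter Slc5a1, the nucleoside carrier Slc28a2 and the monocarboxylate carrier Slc16a7 (4 members, against a background of 2.82%). Lower in ARB were probe sets of the fructose carrier Slc2a5, the cationic amino acid carrier Slc7a1, the multivitamin carrier Slc5a6 and the glucose-6-phosphate translocase Slc37a4 (4 members, background 2.99%). Such fits of 4 arrays for either drug against control called 0% of probe sets. With all groups in the fit but any of the ACEI or ARB arrays left out, 0 members passed.

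**Figure D2:**
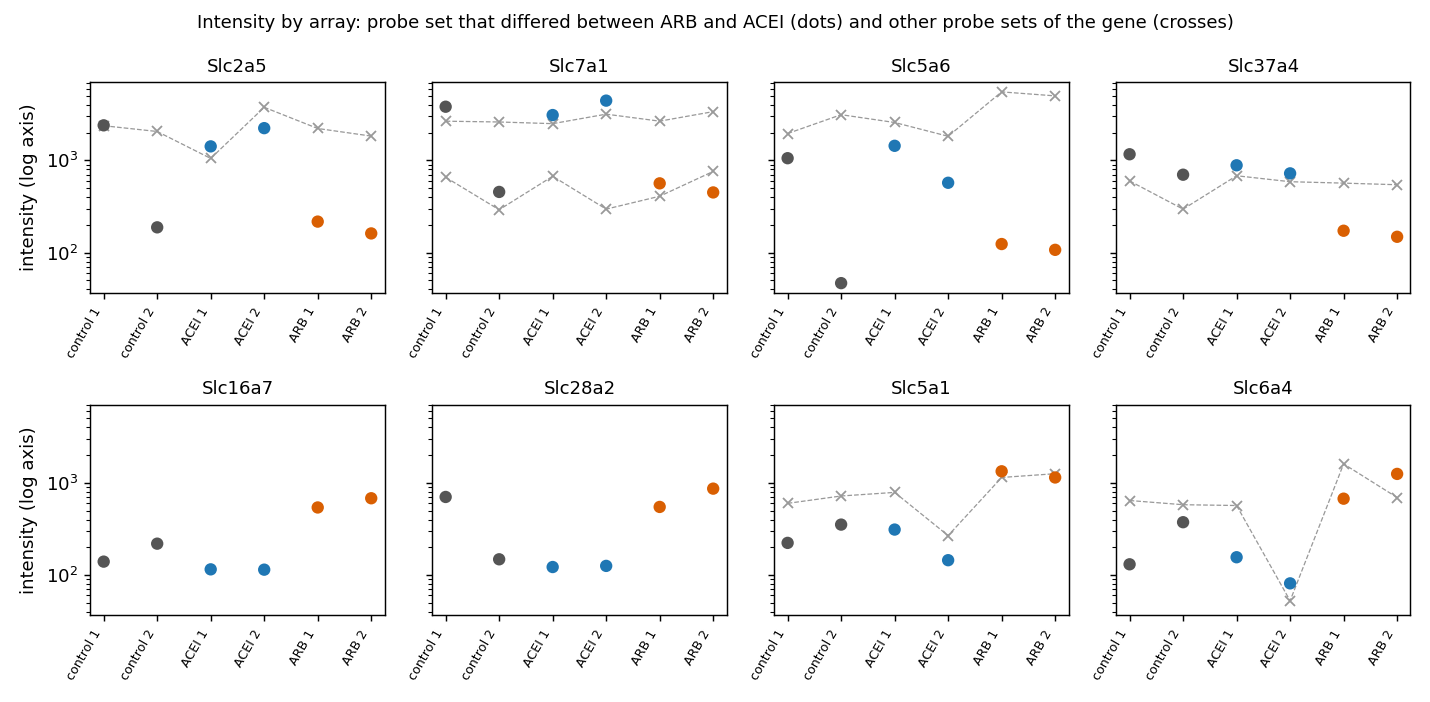
Intensity on each array (log axis) of the 8 probe sets that differed between ARB and ACEI in the fit of those 4 arrays (dots, coloured by group), with the other tested probe sets of the same gene as crosses joined by dashed lines. The crosses of Slc5a1 and Slc6a4 lie higher on the ARB than on the ACEI arrays like the dots, whereas those of Slc2a5, Slc7a1 and Slc37a4 show no such step and those of Slc5a6 step the other way.

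Of the 8 probe sets called between ARB and ACEI, 4 belong to the sugar class, which holds 16 of the 104 tested members. One of these is the vitamin carrier Slc5a6, classed there by its family. Slc2a5, which carries fructose, read, with probe set D28562_s_at, 2405 and 188 in controls, 1422 and 2242 in ACEI, and 217 and 161 in ARB. It was high on both ACEI arrays and low on both ARB arrays, with the controls split between these levels. ARB was lower than ACEI (log2 difference -2.76 ± 0.40, adjusted p = 0.0239 by limma on the 4 arrays; ± 0.90 and unadjusted p = 0.0143 unadjusted on all 6). The ARB values lay below the highest bacterial control of these arrays, 545.3 and 522.9, so no fold is given. The other probe set of Slc2a5, D13871_s_at, read 2382 and 2062 in controls, 1052 and 3775 in ACEI, and 2223 and 1838 in ARB. Its groups overlapped, and its difference between ARB and ACEI was 0.01 ± 0.61.

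Slc37a4 moves glucose-6-phosphate into the endoplasmic reticulum, the last stretch of glucose release. Its probe set AF080468_g_at read 1168 and 700.2 in controls, 886 and 724 in ACEI, and 173 and 148 in ARB, so that both ARB arrays lay below all 4 others. ARB differed by -1.83 ± 0.37 from ACEI (adjusted p = 0.0415 on the 4 arrays) and, on all 6 arrays, by -1.99 ± 0.47 from control (unadjusted p = 0.00243), with both ARB values again below the highest bacterial control. The companion AF080468_at, built on the same sequence record, read 599 and 296 in controls, 682 and 588 in ACEI, and 567 and 545 in ARB, a difference from ACEI of -0.16 ± 0.48. Its relative Slc37a1, a sugar phosphate exchanger, read 378 and 396 in controls, 356 and 436 in ACEI, and 125 and 111 in ARB. Its ARB values too lay below all other arrays and below the highest bacterial control, at -1.20 ± 0.44 against control (unadjusted p = 0.0245).

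Slc5a1 takes up glucose and galactose together with sodium. With D16101_s_at it read 223 and 352 in controls, 311 and 145 in ACEI, and 1335 and 1144 in ARB. Both ARB arrays lay above the rest, 4.32-fold above ACEI (2.11 ± 0.42, adjusted p = 0.0396 on the 4 arrays) and 3.56-fold above control (1.83 ± 0.49, unadjusted p = 0.00514 on all 6). The other probe set, U03120_at, read 599 and 720.1 in controls, 788 and 268 in ACEI, and 1144 and 1257 in ARB, with ARB again above all others at 1.20 ± 0.54 against ACEI. Slc5a1, Slc6a4 and the iron exporter Slc40a1 were the genes with several tested probe sets whose probe sets were all more than 2-fold apart in the same direction between ARB and ACEI.

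The promoters of Slc5a1 and Slc40a1, carriers on which several probe sets gave the same direction, and of Slc16a7, described below, are shown because both ARB arrays of these members lay on the same side of both ACEI arrays. They are the 250 bases before the start of the gene, 5′ to 3′ on the gene's strand, in RefSeq's sequence of build GRCr8, and Slc6a4 is named without one. Capitals mark matches on either strand to the GC box GGGCGG, to the TATA box written as TATAAA, to the core CCAAT of another common promoter motif, and to the E-box CACGTG.
Slc5a1, chr14:81843085-81843334, minus strand: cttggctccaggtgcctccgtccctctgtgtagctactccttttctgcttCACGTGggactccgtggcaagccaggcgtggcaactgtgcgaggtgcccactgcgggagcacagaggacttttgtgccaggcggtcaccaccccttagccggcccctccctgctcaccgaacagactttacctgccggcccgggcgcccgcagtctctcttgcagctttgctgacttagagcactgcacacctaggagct
Slc16a7, chr7:63040399-63040648, minus strand: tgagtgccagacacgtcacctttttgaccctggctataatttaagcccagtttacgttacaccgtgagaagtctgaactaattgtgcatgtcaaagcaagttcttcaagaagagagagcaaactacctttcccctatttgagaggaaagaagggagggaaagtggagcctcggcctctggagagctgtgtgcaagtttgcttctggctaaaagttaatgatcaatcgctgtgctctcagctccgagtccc
Slc40a1, chr9:55543461-55543710, minus strand: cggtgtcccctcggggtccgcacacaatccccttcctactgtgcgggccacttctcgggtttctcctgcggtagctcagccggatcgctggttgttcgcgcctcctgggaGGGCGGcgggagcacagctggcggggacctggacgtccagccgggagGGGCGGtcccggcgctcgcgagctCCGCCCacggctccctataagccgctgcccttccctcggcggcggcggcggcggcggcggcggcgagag
Slc40a1 held 3 GC boxes and a GC content of 74%, Slc5a1 1 E-box and 62.8%, and Slc16a7 none of the 4 motifs and 47.2%. A GC box was found in 32.4% of all 27457 promoters of this length and in 47.4% of the 95 that belonged to members. TATAAA was found in 13.1% and 8.42%, CCAAT in 34.3% and 37.9%, and CACGTG in 5.79% and 9.47%. A match is a run of letters and not evidence that a factor bound there.

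Slc5a6, which carries biotin, pantothenate and lipoate with sodium, was the gene whose probe sets differed from each other most. AF081204_s_at read 1058 and 46.6 in controls, 1442 and 572 in ACEI, and 124 and 107 in ARB, a difference from ACEI of -2.29 ± 0.49 (adjusted p = 0.0466 on the 4 arrays) with ARB values below the highest bacterial control. AF026554_at read 1961 and 3138 in controls, 2582 and 1829.5 in ACEI, and 5548 and 5022 in ARB, a difference of 1.25 ± 0.48 in the opposite direction (unadjusted p = 0.0297 on all 6 arrays). No direction can be given for the gene.

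Slc2a3, the glucose carrier of neurons, read 598 and 435 in controls, 520 and 239.9 in ACEI, and 1206 and 1647 in ARB with D13962_g_at. Both ARB arrays were above the other 4, at 1.32 ± 0.50 against control (unadjusted p = 0.0292) and 1.74 ± 0.50 against ACEI (unadjusted p = 0.00787). The dim companion D13962_at, below the filter, read 48 to 69.1 in controls and ACEI, and 135 and 196 in ARB. Slc2a4, the insulin-dependent glucose carrier, differed by -0.57 and 0.40 between ARB and ACEI with its probe sets, and the carrier Slc35b1 of the endoplasmic reticulum by -1.25 ± 0.65 and -0.76 ± 0.51. Slc2a2, the glucose carrier of liver and islets, read at most 50.4 on any array. Over the 16 probe sets of the sugar class, the median difference between ARB and ACEI was -0.32, against 0.15 for all probe sets. At an unadjusted p under 0.05, 3 members were higher and 4 lower (15.6% and 6.71% of all probe sets). Each of these counts includes a probe set of the vitamin carrier Slc5a6.

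**Figure D3:**
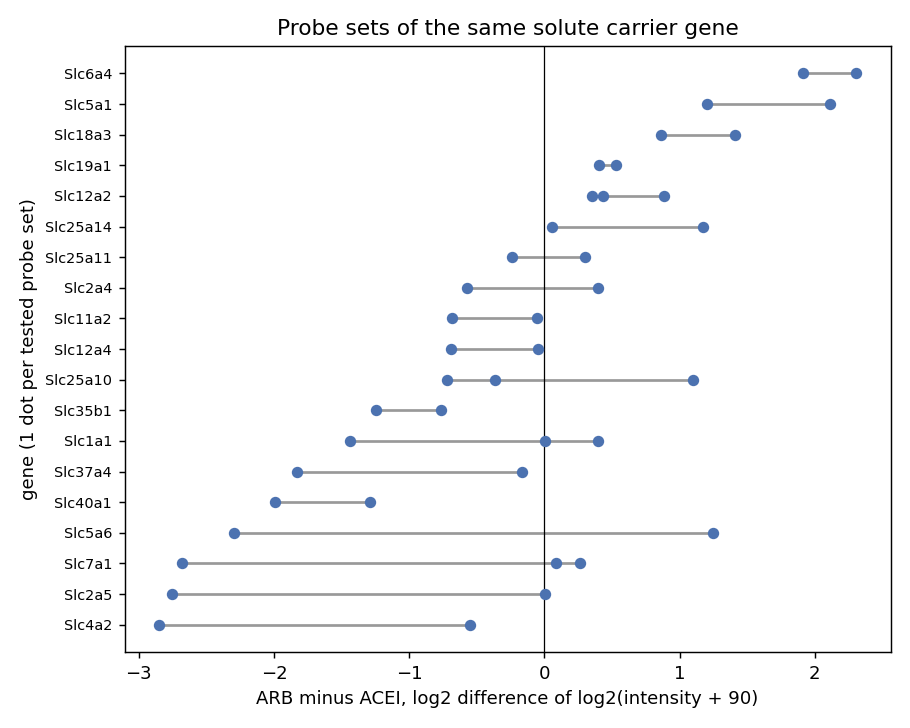
Difference between ARB and ACEI (log2 scale) of each tested probe set for the 19 genes with several, 1 dot per probe set and a line joining those of a gene. The dots of 7 genes lie on both sides of 0, and those of Slc5a6 span 3.54.

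Of the 15 transmitter carrier probe sets, 12 were higher in ARB than in control and 10 higher than in ACEI. Their median difference was 0.72 against control and 0.87 against ACEI, where all tested probe sets had 0.18 and 0.15. Against ACEI, 6 were higher and 2 lower at an unadjusted p under 0.05, where 15.6% and 6.71% of all probe sets were. Slc6a4, which returns serotonin into cells, read 131 and 374 in controls, 156 and 81.1 in ACEI, and 673 and 1251 in ARB with X63253cds_s_at. Both ARB arrays were above the other 4, and ARB was above ACEI by 2.30 ± 0.44 (adjusted p = 0.0367 on the 4 arrays) and above control by 1.66 ± 0.56 (unadjusted p = 0.0165 on all 6). ACEI 1 lay below the highest bacterial control of its array, 168.3. Its other probe set, X63995_at, read 643 and 579 in controls, 568 and 52.5 in ACEI, and 1605 and 693 in ARB. The direction was the same, at 1.91 ± 0.74, and at 0.81 without ACEI 2, the lowest of the 6.

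Slc6a5, the glycine transporter of inhibitory neurons, read 76.5 and 134 in controls, 146 and 293 in ACEI, and 1598 and 578 in ARB. Both drug groups lay above both controls, and no array of ARB overlapped another group. Control 1 and ACEI 1 lay below the highest bacterial control of their arrays, 129.2 and 168.3, so the order of ACEI and control is not read. The difference was 1.55 ± 0.50 for the mean of both drugs against control (unadjusted p = 0.0136), 2.46 ± 0.58 for ARB (unadjusted p = 0.0024) and 0.64 ± 0.58 for ACEI. The dopamine transporter Slc6a3 read 211 and 199.8 in controls, 314 and 206 in ACEI, and 696 and 753 in ARB with S76145_s_at, 2.75-fold above control (1.46 ± 0.45, unadjusted p = 0.0106). Its second probe set, below the filter, read 104 and 213 in controls, 191 and 47.9 in ACEI, and 92.8 and 621 in ARB, with groups that overlapped.

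The norepinephrine transporter Slc6a2 was 1.27 ± 0.49 above ACEI in ARB, the proline transporter Slc6a7 1.11 ± 0.46 above control, and the vesicular acetylcholine carrier Slc18a3 1.41 ± 0.58 and 0.87 ± 0.48 above ACEI with its probe sets. The second probe set of Slc6a2, below the filter, read 9.6 to 30.4 in controls and ACEI, and 109.9 and 56.9 in ARB. The vesicular carriers Slc17a7 for glutamate and Slc18a2 for monoamines stayed below the filter. Of the neuronal markers, 18 of 18 were higher in ARB than in control (median difference 1.08, all tested probe sets 0.18). Against ACEI, 14 of 18 were higher (0.46, all tested probe sets 0.15). Several of these markers were dim in ARB, such as Camk2a at 120.2 and 59.6 and Nefm at 89.3 and 171.9. Such values lay below the highest bacterial control of the ARB arrays, 545.3 and 522.9, so no direction is read from them. The markers' part in the result was not tested.

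Of the Slc6 family, Slc6a20a and Slc6a13 read lower in ARB than in ACEI. Slc6a20a, which carries proline and related imino acids, read 1509.6 and 437 in controls, 1438 and 2295 in ACEI, and 580.3 and 98.5 in ARB, a difference from ACEI of -2.43 ± 0.75 (unadjusted p = 0.011). Slc6a13, a GABA and taurine carrier of vessels and meninges, read 571 and 237 in controls, 492 and 547 in ACEI, and 175 and 108 in ARB, a difference of -1.41 ± 0.51 (unadjusted p = 0.0232). For both, the 2 ACEI arrays were above the 2 ARB arrays. Both ARB values of Slc6a13, and that of Slc6a20a on ARB 2, lay below the highest bacterial control of their arrays. These controls read 545.3 on ARB 1 and 522.9 on ARB 2, so no fold is given. Widely spread were the taurine carrier Slc6a6, at 3217 and 230.3 on the control arrays, and the glycine carrier Slc6a9, at 3255 and 345, with standard errors of 0.99 and 1.04. The creatine carrier Slc6a8 ranged from 1737 to 3254 over the 6 arrays, with a difference of 0.57 ± 0.48 between ARB and ACEI. The GABA carrier Slc6a11 of astrocytes was 0.96 ± 0.49 above control in ARB, and the vesicular GABA carrier Slc32a1 0.60 ± 0.46 with AF030253_at. The dim second probe set of Slc32a1 read 173 and 167 in controls, 348 and 40.5 in ACEI, and 135 and 134 in ARB, a difference from control of -0.21.

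Amino acid carriers had 7 tested probe sets of 3 genes, and the probe sets of 2 of these genes disagreed. Slc7a1, which takes up arginine and lysine, read 3830.1 and 455 in controls, 3109.7 and 4460.3 in ACEI, and 564 and 449.6 in ARB with rc_AA957917_s_at. It was high on control 1 and both ACEI arrays and low on control 2 and both ARB arrays. ARB differed from ACEI by -2.68 ± 0.39 (adjusted p = 0.0239 on the 4 arrays), with ARB 2 below the highest bacterial control of its array, 522.9. U70476_at ran from 2508 to 3386 over the 6 arrays (0.09 ± 0.45), and L10152_s_at from 292 to 759.9 (0.26 ± 0.58), with no such step.

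Slc1a1, the glutamate carrier of neurons, read 2232 and 4269.8 in controls, 902 and 1490.2 in ACEI, and 1086 and 1258 in ARB with D63772_at. Both controls lay above all 4 treated arrays. The difference was -1.34 ± 0.45 for both drugs together (unadjusted p = 0.0158), -1.35 ± 0.52 for ACEI, where it was the single member past the unadjusted threshold (unadjusted p = 0.0296), and -1.34 ± 0.52 for ARB. The other probe sets differed by -0.43 ± 0.64 and 0.62 ± 0.69 for both drugs together, and their control arrays were far apart, at 1262 and 189.9 with AF038571_s_at and at 661 and 31.5 with L35558_s_at. Slc3a1, the partner chain of a cystine carrier, differed by 0.67 ± 0.45.

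Ion carriers showed no common direction. Of 25 tested probe sets, 12 were higher and 13 lower in ARB than in ACEI, with a median of -0.05. Slc40a1, which exports iron from cells and is present in brain endothelium, read 1478 and 389.6 in controls, 1587 and 3054 in ACEI, and 299.6 and 762 in ARB with U76714_at. U76714_g_at, from the same sequence record, read 1132 and 386 in controls, 1253 and 2749.7 in ACEI, and 548 and 904 in ARB. Both ACEI arrays were above all 4 others with each probe set. ACEI was 2.65-fold and 2.56-fold above control (1.41 ± 0.70 and 1.36 ± 0.62, unadjusted p = 0.0759 and 0.0597). ARB was below ACEI by -2.00 ± 0.70 and -1.29 ± 0.62. With U76714_at, ARB 1 lay below the highest bacterial control of its array, 545.3, and with U76714_g_at just above it. On the first run day ACEI exceeded control by 0.10 and 0.14, and on the later day by 2.71 and 2.58.

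Slc4a2, a chloride-bicarbonate exchanger, had the lowest difference of any member between ARB and ACEI, with a spread to match. J05166_at read 6713 and 146 in controls, 6592 and 2812 in ACEI, and 257 and 989 in ARB (-2.85 ± 1.35). Its ARB 1 value lay below the highest bacterial control of that array, 545.3. J05166_g_at read 2978 and 2625 in controls, 5177 and 2531 in ACEI, and 2809.9 and 2127 in ARB (-0.55 ± 0.51). Against control the difference of J05166_at in ACEI was 4.22 without control 1 and -0.63 without control 2. Slc4a3, its relative of heart and brain, read 849.7 and 642 in controls, 1201 and 1079 in ACEI, and 1610 and 2292 in ARB. The groups did not overlap and stood in the order control, ACEI, ARB, at 0.92 ± 0.40 for both drugs together (unadjusted p = 0.0471) and 1.28 ± 0.46 for ARB (unadjusted p = 0.0225).

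The sodium-potassium-chloride cotransporter Slc12a2, which the choroid plexus uses in secretion, ranged from 1963 to 6605 with AF051561_s_at, and its 3 tested probe sets were 0.05, 1.66 and 1.05 above control in ARB. For the second of these, AF086758_g_at, control 2 read 20.2 and control 1 read 544. Its remaining probe set, the dim AF086758_at, read 10.8 to 19.5 in controls and ACEI, and 172 and 118 in ARB. The phosphate carrier Slc20a2 read 1685 and 89 in controls, 2777 and 1016 in ACEI, and 1086 and 1112 in ARB. Its difference for both drugs together was 1.37 ± 0.84, and -0.29 without control 2. The potassium-chloride cotransporter Slc12a7 differed by -0.42 ± 0.46 for both drugs together.

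The sodium-calcium exchangers Slc8a1 and Slc8a2 differed from control in ARB by -1.32 ± 0.70 with X68812_s_at and by 1.14 ± 0.55. The remaining 4 probe sets of Slc8a1, below the filter, had differences of 0.83 to 1.62. Of the 59 members below the filter, 52 were higher in ARB than in control, so no direction is read from these 4. The thiazide-sensitive Slc12a3 differed by -0.96 ± 0.53 in ACEI with U10097_at, while its second probe set, below the filter, read 58.4 and 83.1 in controls, 52 and 49.9 in ACEI, and 116 and 216 in ARB. The zinc exporter Slc30a1 differed by 0.98 ± 0.62 in ACEI. Of Slc8a1 with X68812_s_at, Slc8a2, Slc12a3 with U10097_at and Slc30a1, none had an unadjusted p under 0.05.

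**Figure D4:**
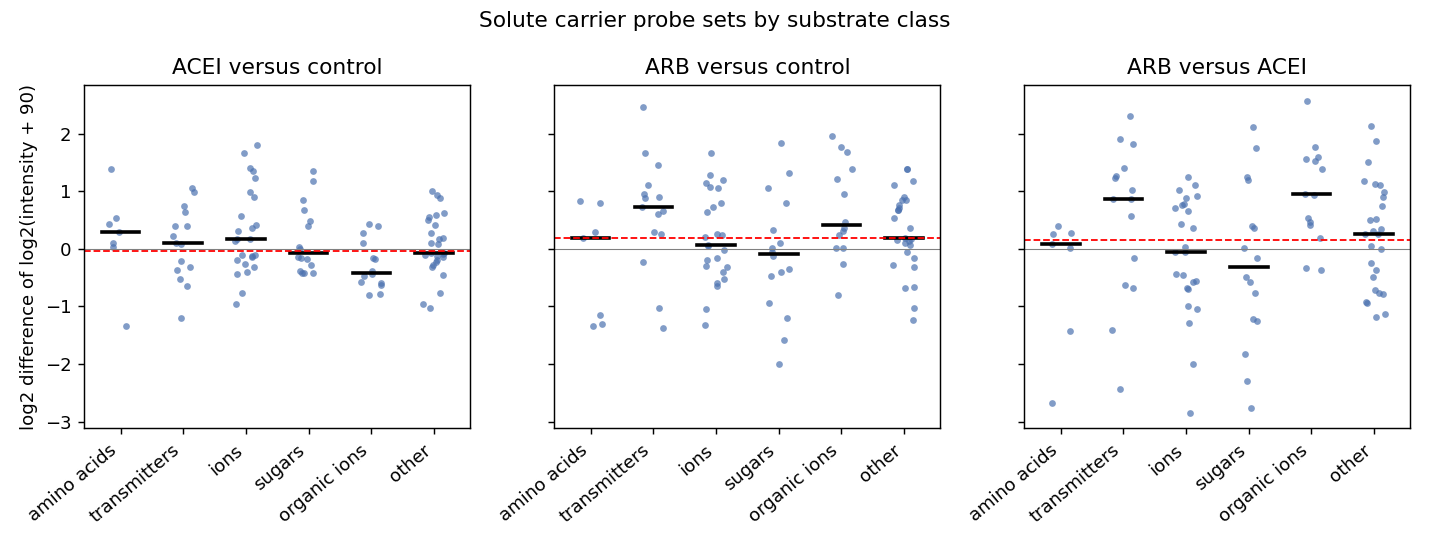
Log2 differences of the 104 tested probe sets by substrate class for ACEI against control, ARB against control and ARB against ACEI. Points are probe sets, black bars class medians, and the dashed line the median of all 5244 tested probe sets; organic ion carriers had medians of -0.41, 0.41 and 0.94, and sugar carriers -0.07, -0.09 and -0.32.

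The 14 organic ion carrier probe sets had a median of -0.41 in ACEI against control, where that of all probe sets was -0.04, with 10 below 0 and 0 past an unadjusted p of 0.05 in either direction. In ARB against control the median was 0.41 (all probe sets 0.18), with 12 above 0. Of these 12, 4 were past that threshold, where 12.6% of all probe sets were higher. Between the drugs the median was 0.94 (all probe sets 0.15), and 12 were higher in ARB, 5 of them at an unadjusted p under 0.05 (15.6% of all probe sets). Slc16a7, which carries pyruvate and lactate into neurons, read 139.6 and 219 in controls, 115 and 114 in ACEI, and 541 and 681 in ARB. Both ARB arrays were above the rest, by 1.77 ± 0.37 against ACEI (adjusted p = 0.0448 on the 4 arrays) and 1.39 ± 0.45 against control (unadjusted p = 0.0141 on all 6). ARB 1 and ACEI 1 lay below the highest bacterial control of their arrays, 545.3 and 168.3, so no fold is given. Its relative Slc16a6 read 689 and 1030.1 in controls, 1018 and 529 in ACEI, and 1806 and 2391 in ARB, at 1.21 ± 0.50 against control (unadjusted p = 0.041).

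The organic anion exchanger Slc22a6, known from the kidney and the choroid plexus, read 63.3 and 403 in controls, 235 and 336 in ACEI, and 1334 and 718 in ARB, above control by 1.96 ± 0.64 (unadjusted p = 0.0138), with control 1 below the highest bacterial control of its array, 129.2. Slc22a13 read 279 and 145 in controls, 308 and 161 in ACEI, and 770.2 and 957 in ARB, 3.22-fold above control (1.69 ± 0.49, unadjusted p = 0.00829). For both, the ARB arrays lay above all others. The bile acid carrier Slc10a2 read 275 and 416 in controls, 174 and 139 in ACEI, and 456 and 3827 in ARB, so that its difference from ACEI was 2.57 ± 0.82 and, without ARB 2, 1.15. Its second probe set, below the filter, read at most 31.1 in controls and ACEI, and 182 and 51 in ARB. The reduced folate carrier Slc19a1 differed by 0.41 ± 0.47 and 0.53 ± 0.58 between ARB and ACEI, and the carnitine carrier Slc22a5 by -0.37 ± 0.50. The rise of Slc10a2 rested on ARB 2, as ARB 1 lay below the highest bacterial control of its array, 545.3. Slc22a6 was highest on both ARB arrays, as was transthyretin (Ttr) of the choroid plexus. The Ttr probe sets read 9794 to 92148 on the control and ACEI arrays and 194512 to 217986 on the ARB arrays. Over all 9 choroid plexus and ependymal genes, 5 were higher and 4 lower in ARB than in ACEI, and their part in the result was not tested.

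Among the other members, the concentrative nucleoside carrier Slc28a2 read 703 and 148 in controls, 122 and 126 in ACEI, and 548 and 865 in ARB. ARB was above ACEI by 1.87 ± 0.39 (adjusted p = 0.0459 on the 4 arrays) but overlapped the controls, and ACEI 1 lay below the highest bacterial control of its array, 168.3. Slc28a1, which takes up pyrimidine nucleosides, read 712 and 550 in controls, 989 and 310.1 in ACEI, and 1845 and 1698 in ARB, with ARB above all other arrays at 1.38 ± 0.56 against control (unadjusted p = 0.0382). The equilibrative carrier Slc29a1, which sets adenosine levels around vessels, read 623 and 513 in controls, 678 and 905 in ACEI, and 1212 and 1071 in ARB. Its groups did not overlap and stood in the order control, ACEI, ARB, at 0.91 ± 0.45 for ARB, short of an unadjusted p of 0.05 (0.076). The fatty acid carrier Slc27a2 was 2.14 ± 0.80 above ACEI in ARB, from 216 and 1446 on the ARB arrays and 77 and 55.6 on the ACEI arrays, with controls at 90.4 and 425. Without ARB 2 this difference was 0.97. Both ACEI values lay below the highest bacterial control of their arrays, 168.3 and 61.1, as did that of ARB 1, 545.3 on its array.

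Mitochondrial carriers went in both directions. The ADP/ATP exchangers Slc25a4 and Slc25a5 were lower in ARB: Slc25a4 read 7143 and 5642 in controls, 10199 and 8052 in ACEI, and 4191 and 3734 in ARB, and Slc25a5 read 7603 and 13814, 10309.6 and 8905, and 4234 and 5890.3. Both ARB arrays were below all others for each, at -1.18 ± 0.45 and -0.93 ± 0.50 against ACEI (unadjusted p = 0.0294 and 0.0965). The carnitine-acylcarnitine carrier Slc25a20 read 735 and 902 in controls, 871 and 640.1 in ACEI, and 171 and 473 in ARB (-1.24 ± 0.52 against control, unadjusted p = 0.0436). Both of its ARB values lay below the highest bacterial control of their arrays, 545.3 and 522.9. The phosphate carrier Slc25a3 lay in the opposite direction, at 8733 and 12105 in controls, 10036 and 7559.7 in ACEI, and 17615 and 15287 in ARB (0.91 ± 0.46 against ACEI). The dicarboxylate carrier Slc25a10 was 1.38 ± 0.44 above control in ARB with AJ223355_g_at (unadjusted p = 0.0127), where 1144 and 1339 in controls stood against 3331 and 3409, while its other tested probe sets differed by 0.15 ± 0.70 and 0.19 ± 0.45.

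**Figure D5:**
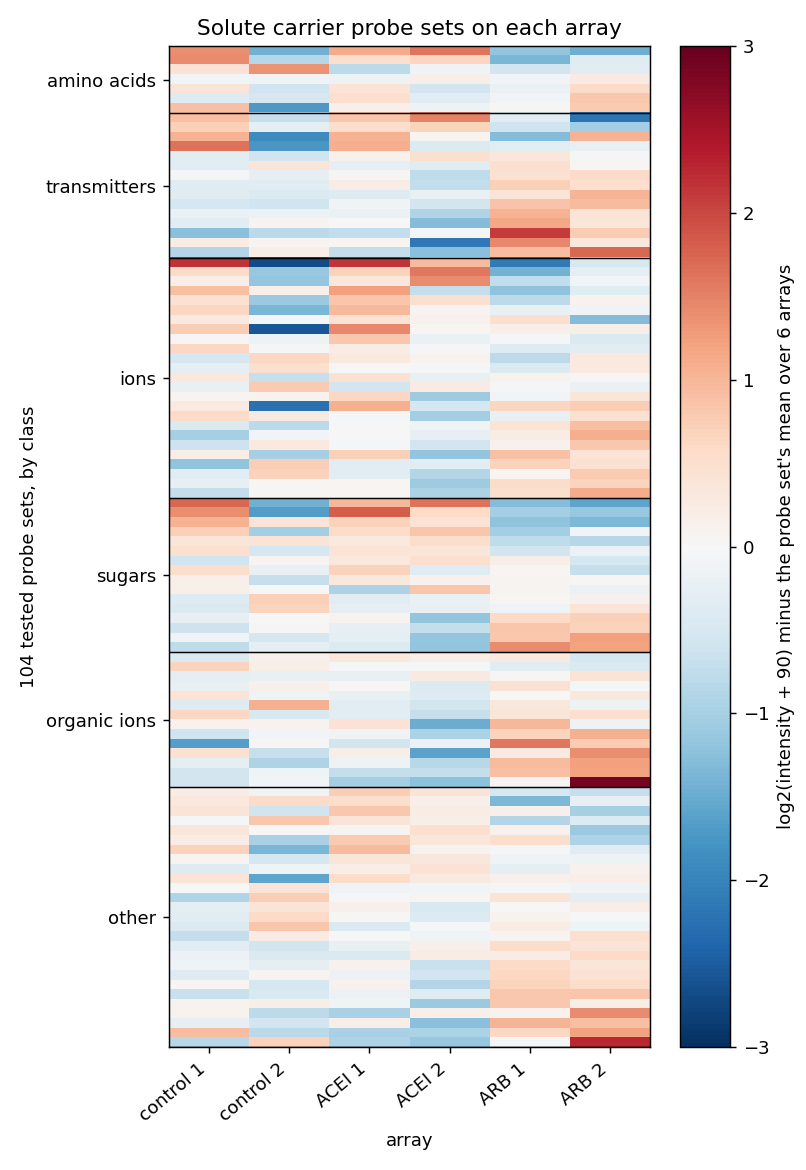
Each of the 104 tested probe sets (rows, by class) on each of the 6 arrays (columns), as log2(intensity + 90) minus the probe set's mean over the arrays. Several rows that are high on control 1 and both ACEI arrays (red) are low on control 2 and both ARB arrays (blue), and many rows are highest on the ARB arrays.

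Several of the members that were lower in ARB than in ACEI were also low on control 2. The intensities given above show this for probe sets of Slc2a5, Slc7a1, Slc5a6, Slc6a20a and Slc4a2. The endothelial marker Pecam1 had the same order, at 5538 and 194 in controls, 2728 and 5564 in ACEI, and 553 and 317 in ARB. Of the 13 endothelial genes, 11 were lower in ARB than in ACEI, with a median of -0.94, and 10 were higher on control 1 than on control 2. All 6 oligodendrocyte genes with a probe set were lower in ARB than in ACEI as well (-0.93). The part of either cell type in the carriers' differences was not tested. Within the later run day, set against ACEI 2 alone, the differences of the 8 called probe sets, whose signs their selection fixes, ran from -3.07 for Slc2a5, -2.94 for Slc7a1, -1.70 for Slc37a4 and -1.69 for Slc5a6 to 1.77 for Slc16a7, 1.86 for Slc28a2, 2.50 for Slc5a1 and 2.56 for Slc6a4.

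The differences depend on how the arrays were brought to a common scale. Quantile normalization moved the median of all probe sets from 0.18 to -0.07 for ARB against control and from 0.15 to -0.05 for ARB against ACEI, and that of the members from 0.25 to 0.03 and from 0.29 to 0.08. Under both settings the median of the members lay above that of all probe sets. The medians of the transmitter carriers remained positive (0.39 and 0.63), as did those of the organic ion carriers (0.18 and 0.55), while the sugar carriers moved to -0.40 and -0.64 and the amino acid carriers turned from 0.18 and 0.09 to -0.27 and -0.26. All 13 members higher in ARB than in control at an unadjusted p under 0.05, and all 18 higher than in ACEI, were also higher after quantile and after cyclic loess normalization, but not all at an unadjusted p under 0.05. Of the 17 members past that threshold for ARB against control, 11 and 9 were past it after these normalizations, and of the 27 for ARB against ACEI, 18 and 18. The split of 18 higher and 9 lower for ARB against ACEI became 12 and 16 with quantile and 12 and 14 with cyclic loess normalization, and that of 13 and 4 for ARB against control became 9 and 11, and 7 and 6. On both ARB arrays, 11 of the 13 and 15 of the 18 exceeded the highest bacterial control probe set of the array.

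The 59 members below the filter had median intensities of 40.5 to 75.5 on the control and ACEI arrays and of 150.5 and 132.8 on the ARB arrays. Of them, 52 were higher in ARB than in control and 53 higher than in ACEI, as the bacterial control probe sets were, so no direction is read from them. They include the kidney phosphate carrier Slc34a1, with 5 probe sets, the vesicular carrier Slc17a7 and the neuronal chloride exporter Slc12a5. Slc12a5 read highest on the ACEI arrays, at 32.6 and 85.5 in controls, 347 and 316 in ACEI, and 104 and 133 in ARB. Over all 163 members, 127 were above the median of the bacterial controls on every array and 59 above the highest of them on every array.

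Other transport genes did not all follow the members. The 7 carriers set aside are mostly typical of the blood-brain barrier or of astrocytes. Their 14 tested probe sets had a median of -0.79 between ARB and ACEI (all probe sets 0.15). Of the 14, 1 was higher and 5 lower at an unadjusted p under 0.05, where 15.6% and 6.71% of all probe sets were. The sodium-potassium ATPase and its Fxyd partners maintain the sodium gradient. Their median over 10 probe sets was 0.67 in ARB against control (all probe sets 0.18). Of the 10, 2 were higher at an unadjusted p under 0.05, where 12.6% of all probe sets were. The 9 probe sets of ABC transporters, which pump drugs and lipids out of cells, had 0.31, and the 12 of vesicular and other proton pumps -0.27, with no unadjusted call in either. No probe set of these lists passed an adjusted p of 0.05 by limma on the 6 arrays.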

How the data were processed

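Total RNA of SHRSP brain capillaries was hybridised to 6 Affymetrix rat arrays, grouped by their titles into control, ACEI and ARB with 2 arrays each. The deposited table holds 1 intensity per probe set and array, which the authors had scaled, since means without the highest and lowest 2% lay between 997.7 and 1002. The software and the background correction are not given in the sources used here. Per the file headers, run day and chip lot set control 1 and ACEI 1 apart, and the fluidics protocol followed the replicate number. Deviations from the group means of same-numbered arrays correlated at 0.045, -0.015 and -0.0037, so the numbers did not pair the arrays.

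Of 8799 probe sets, 7018 carried 1 symbol, 308 several and 1473 none. The 59 control probe sets and the 40% of the rest with the lowest mean were left out. Log2(intensity + 90) of the 5244 others entered a limma model (version 3.58.1, R 4.3.3) with 1 mean per group, 5.49 prior beside 3 residual degrees of freedom and two-sided tests, whose p-values were adjusted by Benjamini-Hochberg (threshold 0.05). Python 3.11.15 with pandas 2.3.3 and matplotlib 3.10.9 made tables and figures. With 2 arrays per group, their number limits the precision. The offset is 358.3, the median over values above 0, divided by 4 and then rounded.

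The members, classes and lists were chosen with earlier results of these data known. Named were the members past an unadjusted p of 0.05, the 5 highest and 5 lowest per comparison, the 3 brightest per class and a set of carriers with known roles in the brain, with the other probe sets of each. The fit of the groups compared alone was among the listed alternatives. Bacterial control probe sets, cell type markers and promoter motifs are descriptions with no test. Some carriers of that set are not reported here.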

Additional observations from a re-analysis of the deposited data

How the results depend on the processing

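Of 1199 values of 69 named differences under 18 alternatives, 1159 kept their direction and their side of an adjusted p of 0.05, 37 passed it where the main value did not, and 3 reversed, all without control 2 and set here beside the value without control 1: Slc20a2 for both drugs together (-0.29 and 3.02), and Slc4a2 (J05166_at, -0.63 and 4.22) and Slc7a1 (rc_AA957917_s_at, -0.039 and 2.81) for ACEI. The cause of the changes below was not tested. For both drugs against control, the 0 probe sets past an adjusted p became 3 with an offset equal to the median, 1 with quantile or cyclic loess normalization and 3 with the replicate block. For counts at an unadjusted p under 0.05, percentages in brackets give the share of all tested probe sets past it in either direction. Members higher (2) became 6 of 163 with no filter (6.58%), and 1 with quantile normalization (5.32%) or array weights (2.88%). They became 5 without moderation (5.7%) and 8 with a block for run day (10%). Members lower (2) became 4 with quantile or cyclic loess normalization (5.32% and 4.94%) or without moderation, and 1 with array weights. For ACEI, 3 probe sets passed with the larger offset and 2 with the replicate block. Members higher (0) became 1 with that offset (2.84%), no filter (2.37%) or the block (3.93%), and 3 with the run day (3.74%). Members lower (1) became 0 without moderation (2.54%) or in the fit of those groups alone (1.93%).

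For ARB against control, 4 probe sets passed with the larger offset and 4 with the replicate block; members higher (13) became 26 with no filter, 6 with the lowest 60% left out, 7 with cyclic loess and 20 on the later day, those lower (4) became 11 with quantile normalization, and the members' median (0.25) became 0.50 with no filter, 0.032 with quantile normalization, 0.50 with the run day and 0.45 on the later day. For ARB against ACEI, 4 passed with the larger offset, 1 with the replicate block, 518 with array weights (9 members) and 305 in the fit of those groups alone; members higher (18) became 35 with no filter, 9 with 60% left out and 29 on the later day, those lower (9) became 16 with quantile normalization, 14 with cyclic loess, array weights or those groups alone, 4 with the run day and 3 without moderation, and the median (0.29) became 0.49 with no filter, 0.045 with 60% left out, 0.079 with quantile normalization and 0.092 with cyclic loess. With the replicate block no member passed an adjusted p of 0.05, as without it, and 15 of the 17 members past an unadjusted p for ARB against control and 26 of the 27 for ARB against ACEI were also past it with the block.

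Leaving out each array in turn gave, for both drugs together, 0 to 60 probe sets past an adjusted p (60 without control 1), 0 to 16 members higher, 1 to 7 lower and a median of 0.08 to 0.33. The ranges were 0 to 261 (without control 1, with 5 members), 0 to 18, 0 to 4 and -0.13 to 0.24 for ACEI, 0 to 46 (without control 2, with 1 member, Slc2a5 at -3.17, adjusted p = 0.0477 by limma), 3 to 14, 2 to 11 and 0.25 to 0.45 for ARB, and 0 to 305 (without either control), 4 to 24, 3 to 14 and 0.16 to 0.36 for ARB against ACEI. Signal over background limits the members other than the 59 of 163 that exceeded the highest bacterial control on every array.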
